A study of Mus musculus with 39 samples.

Results

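The enzymes that carry the mevalonate pathway to lanosterol were followed through 39 mouse RNA sequencing libraries. The 9 genes were taken by symbol, in the order of the reactions they catalyse: Hmgcs1, Mvk, Pmvk, Mvd, Idi1, Fdps, Fdft1, Sqle and Lss, out of 11556 genes listed in at least 1 of the 5 experiments. Hepatocytes came from livers of C57BL/6 mice that were fasted (n = 2) or fed (n = 3) for 4 h, or fasted (n = 3) or fed (n = 2) for 12 h. Monocytes came from bone marrow of C57BL/6 mice that were fasted or fed for 4 h (n = 4 and 4) or for 17 h (n = 4 and 3), and from bone marrow of fed CCR2-/- and fed C57BL/6 mice (n = 3 and 3). CCR2 is the chemokine receptor by which monocytes leave the marrow. Monocytes were also taken from the spinal cord of C57BL/6 mice with EAE (experimental autoimmune encephalomyelitis, a mouse model of multiple sclerosis) that had been fasted in 24 h cycles for 4 weeks (n = 4) or fed (n = 4). Mice were 8 to 12 weeks old. Fasted mice had food removed and bedding changed, and all mice had water. Whether the libraries within a group come from separate mice is not in the labels, so p-values measure the spread between libraries, which may be technical.

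Cells make cholesterol and other isoprenoids from acetyl-CoA through mevalonate. Hmgcs1 is the cytosolic HMG-CoA synthase, and mevalonate is phosphorylated by Mvk and Pmvk and decarboxylated by Mvd to isopentenyl diphosphate. Idi1 isomerises it, Fdps condenses the units to farnesyl diphosphate, and Fdft1 (squalene synthase), Sqle (squalene epoxidase) and Lss (lanosterol synthase) carry farnesyl diphosphate to the sterol skeleton. In liver the genes are known targets of SREBP-2, the transcription factor encoded by Srebf2, which is released from the endoplasmic reticulum when sterols are scarce and held there by Insig proteins, and which binds sterol regulatory elements, often beside the factor NF-Y.

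Values are TPM, a relative transcript abundance that corrects for gene length and for library size. The unit was inferred from library sums. Values corrected for library size only would have like sums, so an order of levels between genes holds only if the values are scaled for length. All 9 genes were listed for hepatocytes, 8 for marrow at 4 h, for the CCR2-/- experiment and for spinal cord (Lss was not listed), and 6 for marrow at 17 h (Mvk, Sqle and Lss were not listed). All 8 hepatocyte markers looked for were listed in the hepatocyte files, and all 8 monocyte markers in the monocyte files. Ccr2 itself was at 64.7, 62.3 and 60.8 TPM in CCR2-/- monocytes, against 2449, 2622 and 2338 TPM in C57BL/6 monocytes. Some libraries stood apart. The median gene was at 34.5 to 37.1 TPM in fasted 17 h marrow libraries, against 15.5 to 17.2 TPM in fed 17 h ones, fed spinal cord libraries 1 and 2 differed from the other fed ones, and fasted spinal cord library 1 from the other fasted ones, so results that rest on them are also given with the libraries brought to a common scale or without them. The 2 fasted 4 h hepatocyte libraries correlated at 0.917 in log2 values, lower than the 0.964 to 0.992 within the other hepatocyte groups.

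The promoters of 4 of the enzymes are shown because they include the 2 genes that were higher in fed hepatocytes at 12 h than at 4 h by the largest amounts (Hmgcs1 and Idi1) and 2 that were lower (Mvk and Mvd). The windows run from 250 bases before to 50 after the RefSeq start, on build GRCm38.p6: chr13:119690101-119690400 for Hmgcs1, chr13:8885356-8885655 for Idi1 and chr5:114444019-114444318 for Mvk on the plus strand, and chr8:122443373-122443672 for Mvd on the minus strand. Capitals mark TCACNCCAC, a sterol regulatory element consensus, CCAAT, the NF-Y box, and GGGCGG, the GC box, with their reverse complements.
Hmgcs1: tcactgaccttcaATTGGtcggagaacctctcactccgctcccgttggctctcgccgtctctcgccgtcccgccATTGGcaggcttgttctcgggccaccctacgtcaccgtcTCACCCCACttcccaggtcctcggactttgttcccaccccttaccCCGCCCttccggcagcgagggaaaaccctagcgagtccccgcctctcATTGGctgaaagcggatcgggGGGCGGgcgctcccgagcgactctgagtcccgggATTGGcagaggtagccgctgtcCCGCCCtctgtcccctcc
Idi1: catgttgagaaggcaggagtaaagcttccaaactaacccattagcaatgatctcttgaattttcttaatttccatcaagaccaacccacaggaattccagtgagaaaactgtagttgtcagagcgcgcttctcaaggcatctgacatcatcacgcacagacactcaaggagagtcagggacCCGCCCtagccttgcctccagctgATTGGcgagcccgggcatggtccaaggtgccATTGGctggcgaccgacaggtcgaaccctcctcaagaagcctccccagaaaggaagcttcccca
Mvk: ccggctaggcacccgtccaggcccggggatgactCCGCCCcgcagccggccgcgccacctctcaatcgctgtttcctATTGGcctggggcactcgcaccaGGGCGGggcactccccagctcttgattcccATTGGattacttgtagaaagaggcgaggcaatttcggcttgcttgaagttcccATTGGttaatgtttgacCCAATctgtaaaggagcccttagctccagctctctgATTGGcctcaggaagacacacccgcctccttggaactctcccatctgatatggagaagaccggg
Mvd: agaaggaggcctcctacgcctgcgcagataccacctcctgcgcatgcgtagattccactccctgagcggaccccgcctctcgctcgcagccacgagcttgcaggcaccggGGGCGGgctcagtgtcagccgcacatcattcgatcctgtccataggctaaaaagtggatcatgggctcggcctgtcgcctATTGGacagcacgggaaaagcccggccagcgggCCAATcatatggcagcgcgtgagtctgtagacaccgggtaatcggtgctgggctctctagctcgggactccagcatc
RefSeq windows were found for 6 of the 9 genes, 7 windows in all, of which 2 belong to Pmvk. The sterol regulatory element consensus was matched in the Hmgcs1 window, as TCACCCCAC 137 bases before the start, and in no other of the 7, against 1.24% of all 32851 windows. CCAAT was matched on either strand in 6 of the 7 windows, 4 times in Hmgcs1, 5 times in Mvk, 2 times each in Mvd and Idi1 and 1 time in Lss and in 1 of the Pmvk windows, against 37.4% of all windows. The GC box was matched in Hmgcs1, Mvk, Mvd, Idi1 and Lss, against 35.7% of all windows. A match is a description of the letters and was not tested as a binding site.

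In the GENCODE M21 annotation of GRCm38, Hmgcs1 lies at chr13:119690379-119708260, Pmvk at chr3:89454541-89469013, Mvd at chr8:122433601-122443422, Idi1 at chr13:8885501-8892451, Fdps at chr3:89093588-89101959, Sqle at chr15:59315077-59331192 and Lss at chr10:76531588-76557138. Mvk at chr5:114444269-114460591 starts 209 bases from Mmab, a cobalamin adenosyltransferase gene on the opposite strand. Exons of Fdps share 26.7% of their bases with Gm43738 on the same strand, and exons of Fdft1 at chr14:63145150-63179578 share 18.3% with Ctsb on the opposite strand. Exons of Mvd share 0% with the overlapping gene Gm20388. The sources used here do not state whether quantification used strand. Gm43738 was at 11.4 and 43.2 TPM in fasted 4 h hepatocytes, 44.98, 57.8 and 51.3 TPM in fed 4 h, 0.995, 1.86 and 1.33 TPM in fasted 12 h, and 18.9 and 18.4 TPM in fed 12 h hepatocytes, below Fdps in each group.

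After 4 h without food nearly the whole pathway was lower in hepatocytes. In the limma test on log2(TPM + 1), with p-values adjusted by Benjamini-Hochberg over 8966 genes and genes called at an adjusted p under 0.05, 8 of the 9 enzymes fell, where 26.8% of all genes were called lower. The median log2 fold change was -1.46 over the 9, against -0.22 over all genes. Calls over all genes were 928 higher and 2403 lower as deposited, 1124 and 1394 with quantile normalization, and 1153 and 1947 with libraries centred on their medians. A fold change here is on the log2(TPM + 1) scale and understates the change of genes at low levels. In bulk libraries, fewer cells of a type and less RNA per cell cannot be told apart.

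The largest 4 h difference was at Mvd, which makes isopentenyl diphosphate. Mvd stood at 12.3 and 6.54 TPM in fasted hepatocytes, against 99.1, 102 and 98.3 TPM in fed hepatocytes. The fasted libraries differed from each other by more than the fed ones did, and both lay far below them (log2 fold change -3.33, SE 0.25, limma adjusted p = 2.2e-05). At the head of the pathway, Hmgcs1 was at 25.2 and 26.3 TPM in fasted libraries, against 126, 154 and 159 TPM in fed libraries (-2.45, SE 0.11). Mvk, the mevalonate kinase, was at 39.9 and 42.6 TPM in fasted libraries, against 75.4, 80.7 and 74.0 TPM in fed libraries (-0.88, SE 0.16, limma adjusted p = 0.0028). Pmvk, the next kinase, was the member that did not pass the test: it was at 48.4 and 76.8 TPM in fasted libraries, against 82.5, 71.7 and 84.8 TPM in fed libraries, and the groups overlapped (-0.38, SE 0.18, limma adjusted p = 0.13). The Pmvk value rests on which fasted library is kept: it was -0.71 without fasted library 2, which lies among the fed values (limma adjusted p = 0.0038), and -0.05 without fasted library 1 (limma adjusted p = 0.79).

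The enzymes after isopentenyl diphosphate had smaller 4 h fold changes than Mvd. Idi1 was at 6.99 and 14.4 TPM in fasted libraries, against 33.5, 41.7 and 43.0 TPM in fed libraries (-1.86, SE 0.27). Fdps, by far the most abundant of the 9, was at 740 and 822 TPM in fasted libraries, against 1646, 1610 and 1589 TPM in fed libraries (-1.05, SE 0.08). Fdps thus stayed above every other enzyme in both groups. Fdft1 was at 71.2 and 93.5 TPM in fasted libraries, against 220, 232 and 226 TPM in fed libraries (-1.46, SE 0.12). Sqle was at 24.6 and 34.4 TPM in fasted libraries, against 114, 115 and 129 TPM in fed libraries (-1.998, SE 0.16). Lss, which closes the sterol rings, was at 21.6 and 19.5 TPM in fasted libraries, against 50.2, 49.2 and 48.2 TPM in fed libraries (-1.22, SE 0.13). The groups did not overlap for 8 of the 9 enzymes, where 37% of all genes had fasted libraries wholly below fed ones. Limma adjusted p-values of Idi1, Fdps, Fdft1, Sqle and Lss lay between 2.0e-05 and 8.3e-04.

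**Figure D1:**
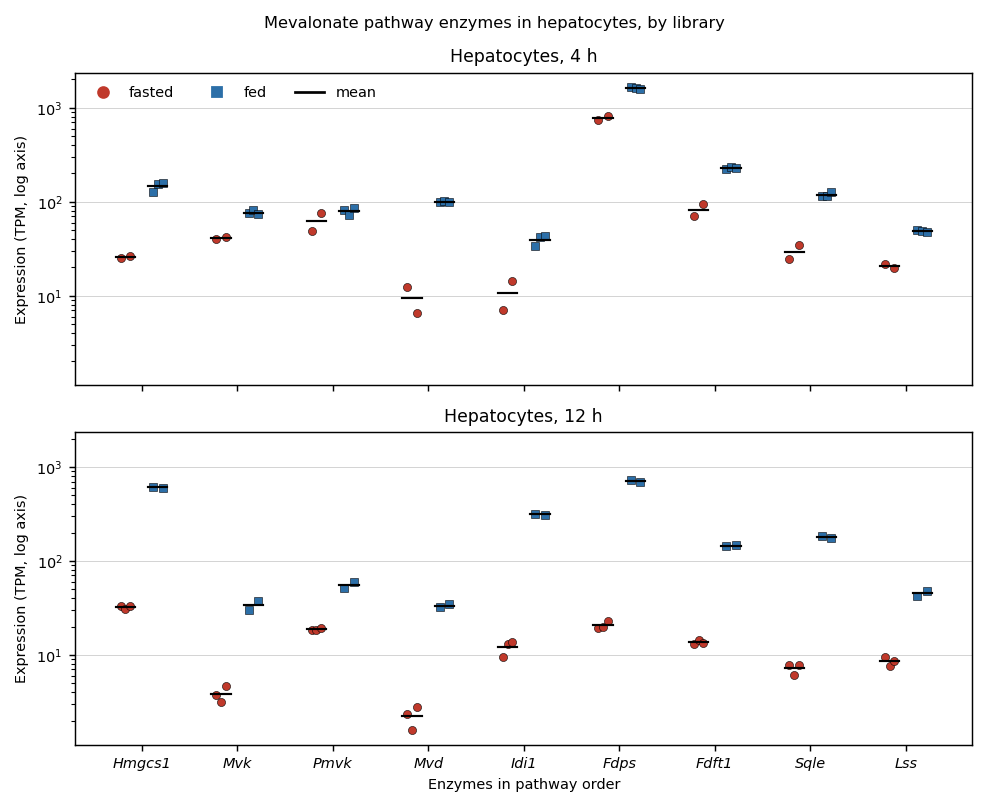
TPM of the 9 enzymes in pathway order (log axis) in each hepatocyte library at 4 h (upper panel) and 12 h (lower panel), with fasted libraries as circles left of fed libraries as squares and bars at the group means. At 4 h the fasted and fed libraries overlap at Pmvk, and at 12 h they are apart at every enzyme, with Fdps at 19.5 to 22.8 TPM in fasted libraries and 698 to 723 TPM in fed ones.

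After 12 h without food all 9 enzymes were lower in hepatocytes, where 16.8% of all genes were called lower (1510 genes, or 991 and 976 without fed 12 h library 1 or 2), and the groups did not overlap for any of the 9, where 32% of all genes had fasted libraries wholly below fed ones. The median log2 fold change was -3.43 over the 9, against 0.05 over all genes. Fdps had the largest difference: its values were 19.5, 19.98 and 22.8 TPM in fasted hepatocytes, against 723 and 698 TPM in fed hepatocytes (log2 fold change -5.03, SE 0.08, limma adjusted p = 3.0e-10). The fed mean was 34.2 times the fasted mean. Gm43738, which shares exon bases with Fdps, differed in the same direction (-3.05, SE 0.43). Idi1 was at 9.43, 13.1 and 13.7 TPM in fasted libraries, against 317 and 307 TPM in fed libraries (-4.60, SE 0.27). Sqle was at 7.72, 6.10 and 7.89 TPM in fasted libraries, against 184 and 177 TPM in fed libraries (-4.47, SE 0.16). Hmgcs1 was at 33.0, 31.1 and 33.4 TPM in fasted libraries, against 608 and 601 TPM in fed libraries (-4.18, SE 0.11). These 4 enzymes, at the entry, the isomerase, the farnesyl diphosphate and the squalene epoxidase steps, had fed means 18.6 to 34.2 times their fasted means.

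The other 5 enzymes differed less at 12 h. Mvd was at 2.36, 1.57 and 2.80 TPM in fasted libraries, against 32.5 and 34.4 TPM in fed libraries (-3.43, SE 0.25). Fdft1 was at 13.01, 14.3 and 13.4 TPM in fasted libraries, against 143 and 147 TPM in fed libraries (-3.33, SE 0.12), while Ctsb, which shares exon bases with it on the other strand, was at 304 to 314 TPM in fasted libraries and 300.2 to 311 TPM in fed ones. Mvk was at 3.72, 3.16 and 4.63 TPM in fasted libraries, against 30.1 and 37.0 TPM in fed libraries (-2.84, SE 0.16). Lss was at 9.60, 7.58 and 8.56 TPM in fasted libraries, against 42.8 and 47.7 TPM in fed libraries (-2.27, SE 0.13). Pmvk had the smallest difference here as at 4 h, with 18.5, 18.2 and 19.3 TPM in fasted libraries, against 51.1 and 59.1 TPM in fed libraries (-1.51, SE 0.18, limma adjusted p = 1.3e-04). The 12 h calls held for all 9 under every alternative run, with each library left out in turn and under both other scalings.

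The 12 h hepatocyte groups also differed in markers of other liver cells. All 10 Kupffer cell and macrophage markers were listed, and their sum was 588 to 598 TPM in fasted 12 h libraries against 80.3 to 86.2 TPM in fed 12 h libraries. All 8 liver endothelial markers were listed, with a sum of 360 to 381 TPM in fasted libraries against 26.3 to 27.6 TPM in fed libraries, and 5 of 6 erythroid markers, with a sum of 344 to 417 TPM against 23.2 to 29.6 TPM in fed libraries. None of these markers was at 0 in every library of a group. At 4 h the Kupffer cell and macrophage sum was 2218 to 2249 TPM in fasted libraries against 1333 to 1387 TPM in fed libraries, and the endothelial sum 499 to 559 TPM in fasted libraries against 284 to 303 TPM in fed libraries. The erythroid sum was lower in fasted libraries at 4 h, at 1453 to 2940 TPM, against 3971 to 4937 TPM in fed libraries. Mitochondrially encoded transcripts summed to 26826 to 28344 TPM in fasted 4 h libraries, against 14801 to 18786 TPM in fed 4 h libraries, and to 50670 to 57157 TPM in fasted 12 h libraries, against 32878 to 34441 TPM in fed 12 h libraries. The part of these cells and transcripts in the differences of the enzymes was not tested.

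The fasting difference itself was larger at 12 h than at 4 h for 8 of the 9 enzymes, where 7.43% of all genes had a called interaction in this direction. The interaction is the 12 h log2 fold change minus the 4 h log2 fold change, and its median over all genes was 0.33. Over all genes 2084 interactions were called higher and 666 lower as deposited, 1326 and 1054 with quantile normalization, and 1439 and 975 with centring; the 666 became 1011 without fasted 4 h library 1 and 420 and 404 without fed 12 h library 1 or 2. The interaction was -3.98 (SE 0.11) for Fdps, -2.74 (SE 0.38) for Idi1, -2.47 (SE 0.23) for Sqle, -1.96 (SE 0.23) for Mvk, -1.87 (SE 0.16) for Fdft1, -1.72 (SE 0.15) for Hmgcs1, -1.13 (SE 0.25) for Pmvk and -1.05 (SE 0.19) for Lss, with limma adjusted p-values between 6.0e-08 and 0.0096. The Pmvk call was lost without fed 12 h library 2 (-1.03, limma adjusted p = 0.050). Mvd, whose 4 h difference was the largest, had -0.10 (SE 0.35, limma adjusted p = 0.86). Mvd was at 1.57 to 2.80 TPM in fasted 12 h libraries, a level at which log2(TPM + 1) understates the change. Its fed mean was 10.6 times its fasted mean at 4 h and 14.9 times at 12 h. With a pseudocount of 0.1 in place of 1, the Mvd interaction was -0.41 (limma adjusted p = 0.48). The Mvd interaction was -1.24 with quantile normalization and passed (limma adjusted p = 0.015), and it turned to 0.31 without fasted 4 h library 1 and 0.06 without fasted 12 h library 2.

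Both the fasted and the fed hepatocytes differed between 12 h and 4 h, in different ways. Each time has its own libraries, so in both comparisons time cannot be told apart from a difference between preparations. In fasted hepatocytes 7 of the 9 enzymes were lower at 12 h than at 4 h, where 23% of all genes were called lower. All-gene calls were 4187 higher and 2062 lower as deposited, 2873 and 3018 with quantile normalization, and 3106 and 3153 with centring. Fdps was at 19.5 to 22.8 TPM at 12 h, against 740 and 822 TPM at 4 h (log2 fold change -5.17, SE 0.08). Mvk (-3.14, SE 0.16), Fdft1 (-2.50, SE 0.12), Sqle (-1.88, SE 0.16), Pmvk (-1.66, SE 0.18), Mvd (-1.64, SE 0.25) and Lss (-1.17, SE 0.13) were lower as well, with limma adjusted p-values up to 2.6e-04. With the replicate number as a block, Mvd (limma adjusted p = 0.090) and Lss (limma adjusted p = 0.056) lost their calls. Hmgcs1 was 31.1 to 33.4 TPM at 12 h and 25.2 and 26.3 TPM at 4 h (0.32, SE 0.11, limma adjusted p = 0.021), where 46.7% of all genes were called higher and the median of all genes was 0.45; centred on the library medians, the Hmgcs1 value was -0.13. The Hmgcs1 call was also lost without fasted 4 h library 1 or fasted 12 h library 3. Idi1 was at 9.43, 13.1 and 13.7 TPM at 12 h, against 6.99 and 14.4 TPM at 4 h, and did not pass (0.22, SE 0.27, limma adjusted p = 0.48). The direction of Idi1 here was not settled: its value was 0.69 without fasted 4 h library 2 (limma adjusted p = 0.016), -0.26 without fasted 4 h library 1 (limma adjusted p = 0.30), -0.43 with quantile normalization and -0.23 with centring. The Kupffer cell and macrophage sum was 588 to 598 TPM in fasted 12 h and 2218 to 2249 TPM in fasted 4 h libraries, and the erythroid sum 344 to 417 TPM in fasted 12 h and 1453 to 2940 TPM in fasted 4 h libraries; their part was not tested.

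In fed hepatocytes Hmgcs1, Idi1 and Sqle were higher at 12 h than at 4 h. These are 3 of the 9, the same share as the 33.3% of all genes called higher. Idi1 was at 317 and 307 TPM at 12 h, against 33.5, 41.7 and 43.0 TPM at 4 h (log2 fold change 2.96, SE 0.27, limma adjusted p = 1.7e-05). Hmgcs1 was at 608 and 601 TPM at 12 h, against 126, 154 and 159 TPM at 4 h (2.05, SE 0.11, limma adjusted p = 7.3e-07). Sqle was at 184 and 177 TPM at 12 h, against 114, 115 and 129 TPM at 4 h (0.60, SE 0.16, limma adjusted p = 0.010). Centred on the library medians the Sqle value was 0.35 and no longer passed (limma adjusted p = 0.079), nor did it without fed 12 h library 1 (0.57, limma adjusted p = 0.069). In the same libraries Mvd (-1.55, SE 0.25), Fdps (-1.18, SE 0.08), Mvk (-1.17, SE 0.16), Fdft1 (-0.64, SE 0.12) and Pmvk (-0.52, SE 0.18) were lower, 5 of the 9, where 25.8% of all genes were called lower. All-gene calls were 2988 higher and 2313 lower as deposited and 2376 and 3106 with centring. The limma adjusted p-values of these 5 lay between 2.6e-06 and 0.031, the last for Pmvk, which lost its call when any of fed 4 h libraries 1 and 3 or fed 12 h libraries 1 and 2 was left out. With the replicate number as a block, Mvd, Mvk, Fdft1, Pmvk and Sqle lost their calls (limma adjusted p from 0.094 to 0.38). Lss was at 42.8 and 47.7 TPM at 12 h, against 50.2, 49.2 and 48.2 TPM at 4 h, and did not pass (-0.12, SE 0.13, limma adjusted p = 0.46), except when centred on the library medians (-0.37, limma adjusted p = 0.036). The Kupffer cell and macrophage sum was 80.3 to 86.2 TPM in fed 12 h and 1333 to 1387 TPM in fed 4 h hepatocytes, the erythroid sum was 23.2 to 29.6 TPM in fed 12 h and 3971 to 4937 TPM in fed 4 h hepatocytes, and their part in these differences was not tested.

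**Figure D2:**
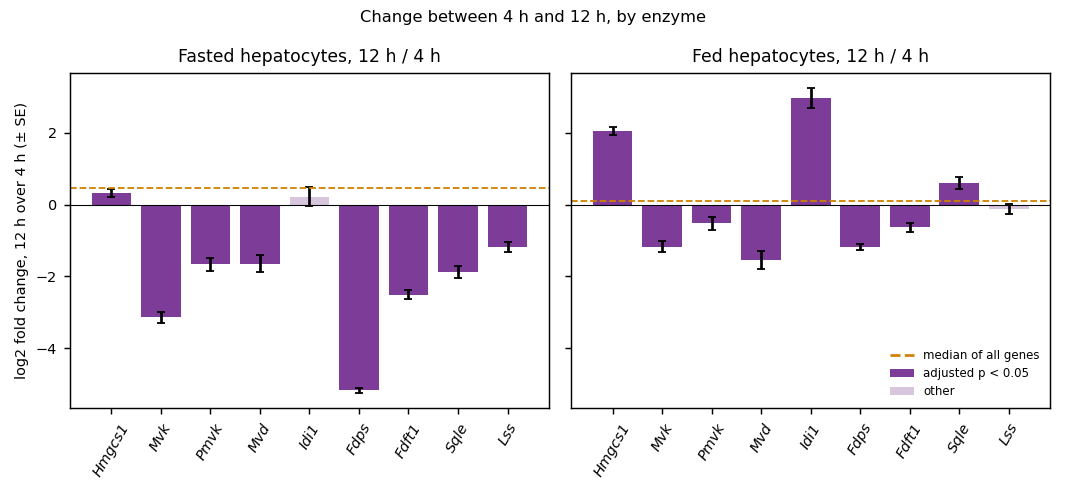
log2 fold change of each enzyme at 12 h over 4 h in fasted (left) and fed (right) hepatocytes, with bars starting at 0, error bars of 1 SE, dark bars for an adjusted p under 0.05 and a dashed line at the median of all genes. In fed hepatocytes Hmgcs1 (2.05) and Idi1 (2.96) are above 0 while Mvd, Fdps and Mvk are below -1; in fasted hepatocytes Fdps has the longest bar, -5.17.

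These shifts changed the order of the levels, as far as the unit allows levels of different genes to be set side by side. Fdps held 72.3 to 74.7% of the summed TPM of the 9 enzymes in fasted 4 h hepatocytes and 64.8 to 67.2% in fed 4 h hepatocytes. It held 16.7 to 18.0% in fasted 12 h and 33.1 to 33.9% in fed 12 h hepatocytes. The sum itself was 1063 ± 103 TPM in fasted 4 h hepatocytes (SD, n = 2), against 2452 ± 4.26 TPM in fed 4 h hepatocytes (SD, n = 3), and 119 ± 6.11 TPM in fasted 12 h hepatocytes (SD, n = 3), against 2121 ± 16.8 TPM in fed 12 h hepatocytes (SD, n = 2). In fed 12 h hepatocytes Fdps was followed by Hmgcs1 (605 ± 4.99 TPM), Idi1 (312 ± 6.84 TPM), Sqle (181 ± 5.10 TPM) and Fdft1 (145 ± 2.41 TPM; SD, n = 2), while Mvk and Mvd at the bottom did not differ beyond their spread. In fed 4 h hepatocytes Fdft1 came after Fdps (226 ± 5.78 TPM) and Idi1 was last (39.4 ± 5.18 TPM; SD, n = 3), with Hmgcs1 and Sqle overlapping in range, and likewise Pmvk and Mvk. In fasted 12 h hepatocytes Hmgcs1 was highest (32.5 ± 1.24 TPM), above Fdps (20.8 ± 1.78 TPM; SD, n = 3), and Mvd was lowest.

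Over the 10 hepatocyte libraries, the enzymes differed in how alike their profiles were in log2 values. These correlations are a description over 4 groups of libraries and mostly follow the group means. Mvk and Fdps had a Pearson r of 0.993, Mvk and Pmvk 0.982, and Pmvk and Fdps 0.981. Fdft1 had 0.972 with Mvk, 0.964 with Pmvk and 0.979 with Fdps. Hmgcs1 and Idi1 had 0.975 with each other but 0.488 and 0.399 with Mvk. Sqle and Lss had 0.981, and Lss had 0.975 with Fdft1 and 0.965 with Mvd. Against the mean of the other 8, Lss (0.992) and Sqle (0.988) were closest and Idi1 (0.652) and Hmgcs1 (0.740) farthest. Of 6213 other genes with a mean of at least 10 TPM, the 8 most like the mean standardised profile of the 9 included Scd1 (r = 0.996), Hsd17b2 (0.992), Aco1 (0.992), Nit2 (0.989), Sqrdl (0.987), Acsm1 (0.987) and Serpind1 (0.986). Scd1, the stearoyl-CoA desaturase, averaged 1456 TPM in fasted 4 h, 3050 TPM in fed 4 h, 528 TPM in fasted 12 h and 3479 TPM in fed 12 h hepatocytes.

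The genes on either side of the pathway were also measured in hepatocytes. At the entry, Acat2, the cytosolic acetoacetyl-CoA thiolase, was lower in fasted hepatocytes at 4 h (log2 fold change -0.58, SE 0.08) and at 12 h (-2.57). Beyond lanosterol, 7 of 10 enzymes to cholesterol were lower at 4 h and 9 of 10 at 12 h, against the backgrounds of 26.8% and 16.8% given above. Their median log2 fold change was -0.83 at 4 h and -1.25 at 12 h. The largest at 12 h were Cyp51 (-3.47), Msmo1 (-3.41), Nsdhl (-3.39) and Sc5d (-1.92), and at 4 h Msmo1 (-1.54), Sc5d (-1.30), Hsd17b7 (-1.23) and Lbr (-1.06). Lbr, a sterol reductase that is also a nuclear envelope protein, was the gene of the 10 that did not pass at 12 h (-0.34, limma adjusted p = 0.49).

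Other branches lead from farnesyl diphosphate away from sterols. Of 14 genes for dolichol, ubiquinone, protein prenylation and geranylgeranyl diphosphate, 4 were lower at 4 h, a share near the 26.8% of all genes: Pdss2 (-1.42) and Pdss1 (-1.17), which make the ubiquinone side chain, Nus1 (-1.17), which acts in dolichol synthesis, and Zmpste24 (-0.89), a protease of prenylated lamin A. At 12 h 1 of the 14 was lower, Coq2 (-0.40), where 16.8% of all genes were called lower, and the median of the 14 was -0.03. Ggps1, the geranylgeranyl diphosphate synthase, was at 1.78 and 2.20 TPM in fasted 4 h libraries and 1.52 to 2.35 TPM in fed 4 h libraries, and at 6.47 to 7.03 TPM in fasted 12 h libraries and 3.77 and 5.90 TPM in fed 12 h libraries, and passed at neither time.

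Regulators of the pathway were mixed: of 16 listed genes of sterol sensing, uptake and efflux, 6 were higher and 5 lower in fasted hepatocytes at 4 h, where 10.4% of all genes were called higher and 26.8% lower, and 4 were higher and 5 lower at 12 h, where 23.4% were called higher and 16.8% lower. The share lower at 4 h and the share higher at 12 h are near those of all genes. Insig1 was at 30.9 and 25.8 TPM in fasted 4 h libraries, against 203, 210 and 193 TPM in fed 4 h libraries (log2 fold change -2.79), and at 9.96 to 14.2 TPM in fasted 12 h libraries, against 167 and 172 TPM in fed 12 h libraries (-3.77). Srebf2 was at 19.8 and 24.1 TPM in fasted 4 h libraries, against 32.5 to 33.3 TPM in fed 4 h libraries (-0.57, limma adjusted p = 0.018), and at 9.06 to 11.6 TPM in fasted 12 h libraries, against 25.6 and 25.4 TPM in fed 12 h libraries (-1.29). Its 4 h call was lost with quantile normalization, without fasted 4 h library 1 and with the 4 h libraries fitted alone. Mylip, a ubiquitin ligase, was higher by 1.46 at 4 h and 2.97 at 12 h. Mmab, named for its place beside Mvk and after its values were seen, was lower at 4 h (-1.05, SE 0.22) and at 12 h (-1.80, SE 0.22).

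In monocytes the sum of the 8 listed enzymes was 207 ± 8.69 TPM in fasted 4 h marrow monocytes, against 308 ± 23.9 TPM in fed 4 h marrow monocytes (SD, n = 4 each), and Fdps was again the highest, with 42.4 to 48.3% of the sum in fasted and 50.7 to 53.5% in fed libraries. The experiments were filtered separately, so levels of different experiments are not compared by a test.

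After 4 h without food 3 of the 8 enzymes were lower in marrow monocytes, where 0.159% of 9428 genes were called lower. The 40 genes called over all were 25 higher and 15 lower as deposited, against 23 and 8 with centring. The 15 became 55 without fasted library 1 and 3 to 6 without any other single library, so the background share is uncertain. Fdps was at 90.1, 83.5, 103 and 103 TPM in fasted libraries, against 162, 171, 144 and 159 TPM in fed libraries (-0.74 on the log2 scale, SE 0.09, limma adjusted p = 0.0053). All 4 fasted libraries lay below all 4 fed ones. Sqle was at 7.12, 5.59, 6.19 and 6.56 TPM in fasted libraries, against 10.6, 14.3, 9.36 and 13.3 TPM in fed libraries (-0.79, SE 0.15, limma adjusted p = 0.047). Idi1 was at 18.8, 19.5, 17.2 and 17.0 TPM in fasted libraries, against 29.7, 35.8, 23.6 and 33.0 TPM in fed libraries (-0.71, SE 0.13, limma adjusted p = 0.046). Fdps was called under every alternative run for this comparison. The calls of Idi1 and Sqle sit at the threshold and were lost under either other scaling, at values of -0.66 to -0.76, and when most single libraries were left out.

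Hmgcs1 and Fdft1 were also lower in every fasted than in any fed library at 4 h but did not pass. Hmgcs1 was at 31.4, 25.0, 28.6 and 26.7 TPM in fasted libraries, against 38.2, 39.6, 33.6 and 41.0 TPM in fed libraries (-0.43, SE 0.11, limma adjusted p = 0.12). Fdft1 was at 15.6, 15.7, 12.6 and 15.4 TPM in fasted libraries, against 20.1, 21.2, 19.2 and 20.4 TPM in fed libraries (-0.43, SE 0.11, limma adjusted p = 0.13). With these, 5 of the 8 enzymes had groups that did not overlap, where 6.37% of all genes did in this direction. The kinases and the decarboxylase overlapped between groups: Mvk had -0.27 (SE 0.15), Pmvk -0.29 (SE 0.18) and Mvd 0.06 (SE 0.11). Of the related genes, Insig1 alone was called (-0.55, SE 0.10, limma adjusted p = 0.046), at 25.6 to 30.4 TPM in fasted and 37.3 to 46.0 TPM in fed libraries. Each other scaling ended the Insig1 call, and it held in 1 of the 8 fits that left out a single library. Srebf2 (-0.59) and Ggps1 (-0.01) did not pass. Cell cycle genes, measured as the sum of 18 markers, were at 2811 to 3290 TPM in fasted and 3476 to 3763 TPM in fed libraries; their part in the result was not tested.

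**Figure D3:**
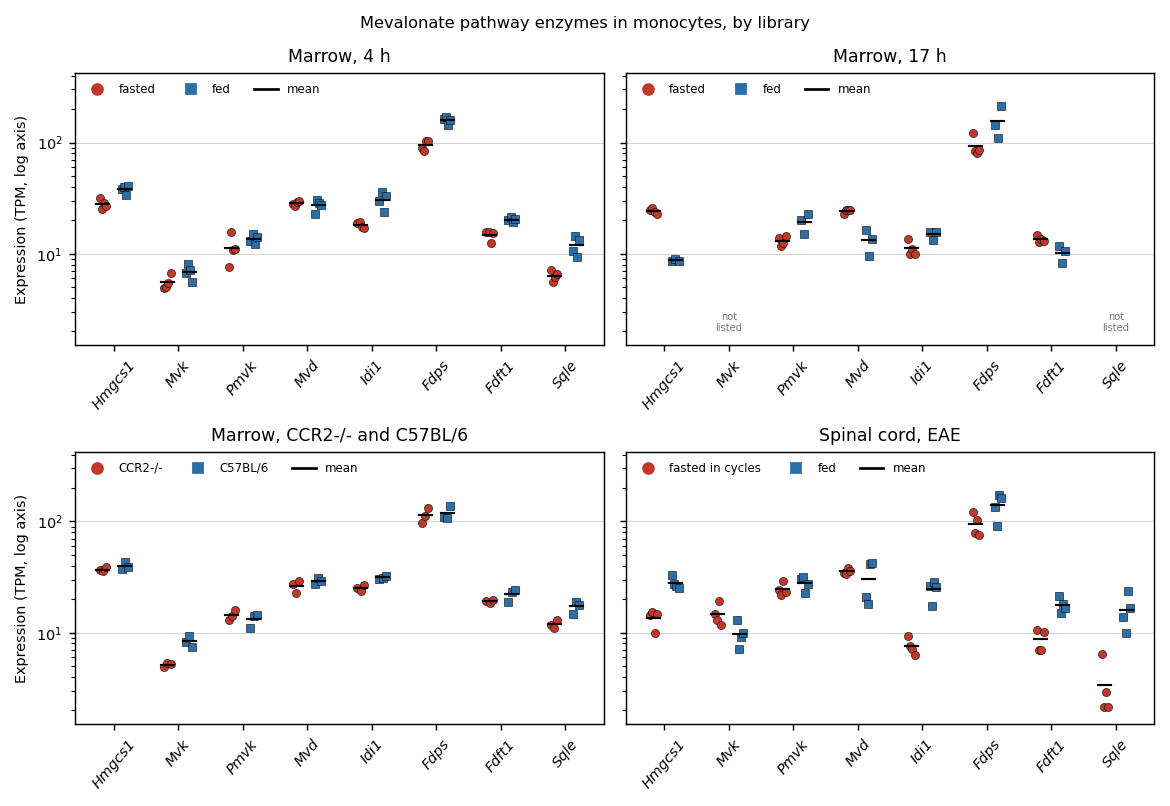
TPM of the enzymes from Hmgcs1 to Sqle (log axis) in each monocyte library, with fasted or CCR2-/- libraries as circles left of fed or C57BL/6 libraries as squares and bars at the group means; Lss was not listed in any monocyte file. At 4 h in marrow the Fdps values are 83.5 to 103 TPM in fasted and 144 to 171 TPM in fed libraries, and in spinal cord the Idi1 values are 6.28 to 9.41 TPM in fasted and 17.5 to 28.6 TPM in fed libraries.

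At 17 h in marrow the 6 listed enzymes divided, and the division has to be read against a shift of the whole library. The median log2 fold change of all 9134 genes was 1.18, with 75.4% of genes called higher and 14% called lower in fasted monocytes. These are 6888 genes higher and 1283 lower as deposited, against 3860 and 2942 with quantile normalization and 3737 and 3323 with centring. The median gene was at 15.5 to 17.2 TPM in fed 17 h libraries and at 37.5 to 38.9 TPM in fed 4 h marrow libraries. Ccr2 was at 486 to 548 TPM in fed 17 h, 1818 to 2223 TPM in fasted 17 h and 1987 to 2128 TPM in fed 4 h libraries. The difference between the 2 fed groups was not tested. Hmgcs1 was at 24.6, 25.7, 23.9 and 23.0 TPM in fasted libraries, against 8.54, 8.99 and 8.70 TPM in fed libraries (1.38, SE 0.10, limma adjusted p = 7.5e-07). Mvd was at 22.6, 24.9, 24.9 and 24.6 TPM in fasted libraries, against 16.5, 9.55 and 13.6 TPM in fed libraries (0.86, SE 0.16), and Fdft1 at 14.6, 12.7, 13.7 and 12.9 TPM in fasted libraries, against 11.8, 8.29 and 10.6 TPM in fed libraries (0.38, SE 0.14, limma adjusted p = 0.025). Only Hmgcs1 of these 3 exceeded the median shift of all genes. Fdps was at 121, 84.6, 81.0 and 86.4 TPM in fasted libraries, against 144, 111 and 215 TPM in fed libraries (-0.71, SE 0.22, limma adjusted p = 0.010). Pmvk was at 14.0, 11.8, 12.5 and 14.3 TPM in fasted libraries, against 19.99, 15.1 and 22.7 TPM in fed libraries (-0.50, SE 0.15). Idi1 was at 13.7, 10.01, 11.1 and 9.89 TPM in fasted libraries, against 15.8, 13.4 and 15.8 TPM in fed libraries, with 1 fasted library inside the fed range (-0.40, SE 0.14, limma adjusted p = 0.021). As deposited, the Idi1 call was lost without fasted library 2 or fed library 1 or 3, and the Fdft1 call without fasted library 1 or 3 or fed library 2.

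Relative to the median of all genes, Hmgcs1 was higher by 0.19 at 17 h, and Mvd (-0.32), Fdft1 (-0.80), Idi1 (-1.58), Pmvk (-1.69) and Fdps (-1.89) were lower. With libraries centred on their medians, Fdft1 turned to -0.71 (limma adjusted p = 5.6e-04) and Mvd to -0.23 (limma adjusted p = 0.18), and Hmgcs1 had 0.28. With quantile normalization Fdft1 turned to -0.91 and Mvd to -0.34, and Hmgcs1 no longer passed (0.12, limma adjusted p = 0.33). Pmvk, Idi1 and Fdps were lower under all 3 scalings. Mitochondrially encoded transcripts summed to 10841 to 14064 TPM in fasted 17 h libraries, against 22638 to 23582 TPM in fed ones, and the sum of the 2 listed of 6 lymphocyte markers was 26.2 to 32.5 TPM in fasted and 114 to 195 TPM in fed libraries. Of these 2 markers, 1 was called lower in fasted libraries (log2 fold change -2.52) and the other had -0.0015. The part of these transcripts and markers in the differences was not tested. The interaction of fasting with time in marrow was called higher for Hmgcs1 (1.81), Fdft1 (0.81) and Mvd (0.79), 3 of 6, where 75.1% of 8844 genes were called higher and the median of all genes was 1.27. The 4 h and 17 h marrow libraries belong to different experiments, so time and experiment cannot be told apart here. All-gene interactions were 6638 higher and 1144 lower as deposited, 3517 and 2489 with quantile normalization, and 3489 and 2936 with centring. Centred on library medians it was 0.66 for Hmgcs1, and -0.34 for Fdft1 and -0.35 for Mvd.

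**Figure D4:**
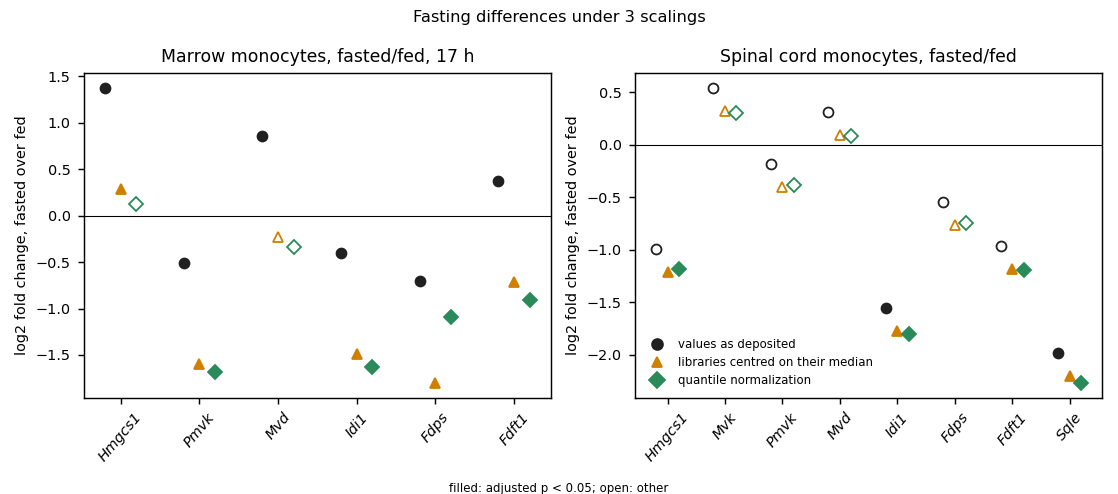
log2 fold change of the listed enzymes, fasted over fed, in marrow monocytes at 17 h (left) and in spinal cord monocytes (right), with the values as deposited, with libraries centred on their medians and with quantile normalization; filled symbols have an adjusted p under 0.05. At 17 h Mvd and Fdft1 are above 0 as deposited and below 0 under both other scalings, while Pmvk, Idi1 and Fdps are below 0 under all 3.

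In CCR2-/- marrow monocytes 1 of the 8 listed enzymes was called, Mvk, where 3.74% of 9210 genes were called lower. All-gene calls were 59 higher and 344 lower as deposited, 94 and 222 with quantile normalization, and 123 and 239 with centring. The 344 became 990 without CCR2-/- library 1, 634 without C57BL/6 library 3 and 5 to 14 without any other single library. Mvk was at 4.93, 5.38 and 5.18 TPM in CCR2-/- libraries, against 8.17, 9.40 and 7.46 TPM in C57BL/6 libraries (log2 fold change -0.60, SE 0.13, limma adjusted p = 0.048). The call was lost under both other scalings and without CCR2-/- library 2 or 3 or C57BL/6 library 1 or 2, at values of -0.49 to -0.62. Mmab, its neighbour, had -0.16 (SE 0.12). Sqle was at 11.7, 11.0 and 12.9 TPM in CCR2-/- libraries, against 14.8, 19.1 and 17.9 TPM in C57BL/6 libraries (-0.50, SE 0.13, limma adjusted p = 0.060), and Idi1 at 25.4, 23.8 and 26.9 TPM, against 30.7, 31.0 and 32.6 TPM in C57BL/6 libraries (-0.30, SE 0.09, limma adjusted p = 0.086). For Mvk, Sqle and Idi1 the groups did not overlap, 3 of 8, where 22.2% of all genes did in this direction. Hmgcs1 (-0.10, SE 0.09), Fdps (-0.05, SE 0.14), Fdft1 (-0.20, SE 0.12), Mvd (-0.15, SE 0.12) and Pmvk (0.12, SE 0.14) did not pass. Of the regulators, Srebf2 was at 20.3, 14.3 and 15.3 TPM in CCR2-/- libraries, against 37.3, 36.1 and 30.1 TPM in C57BL/6 libraries (-1.02, SE 0.15, limma adjusted p = 0.032). The Srebf2 call held under the other scalings and was lost without CCR2-/- library 2 or 3 or C57BL/6 library 1 or 2. Insig1 (-0.21) and Ggps1 (0.11) did not pass. The sum of the 18 cell cycle markers was 3104 to 3174 TPM in CCR2-/- and 3311 to 4630 TPM in C57BL/6 libraries, and its part was not tested.

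In spinal cord monocytes of mice with EAE, 2 of 8 enzymes were lower after fasting cycles, where 0.859% of 9079 genes were called lower. These 78 genes became 173 without fed library 3, 14 to 27 without any 1 fasted library, and 42 and 39 without fed library 1 or 2. Idi1 was at 9.41, 7.66, 7.17 and 6.28 TPM in fasted libraries, against 26.1, 17.5, 28.6 and 25.8 TPM in fed libraries (-1.55 on the log2 scale, SE 0.25, limma adjusted p = 0.017). Sqle was at 6.37, 2.13, 2.92 and 2.16 TPM in fasted libraries, against 13.7, 9.92, 23.9 and 16.6 TPM in fed libraries (-1.99, SE 0.37, limma adjusted p = 0.030). Every fasted library lay below every fed one for both. The same was true of Hmgcs1, at 14.5, 15.4, 10.01 and 14.8 TPM in fasted libraries, against 32.7, 27.6, 26.4 and 25.3 TPM in fed libraries (-0.99, SE 0.24, limma adjusted p = 0.059), and of Fdft1, at 10.7, 6.99, 7.04 and 10.1 TPM in fasted libraries, against 21.2, 15.2, 18.0 and 16.5 TPM in fed libraries (-0.96, SE 0.25, limma adjusted p = 0.079). That makes 4 of 8 without overlap, where 4.68% of all genes were so in this direction. Mvk (0.54, SE 0.27), Mvd (0.31, SE 0.31), Pmvk (-0.19, SE 0.22) and Fdps (-0.54, SE 0.26) overlapped between groups.

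The fed spinal cord libraries were not alike. The sum of the 7 listed of 8 neutrophil markers was 6680 to 18811 TPM in the fasted libraries, against 122754 and 130128 TPM in fed libraries 1 and 2 and 11482 and 6013 TPM in fed libraries 3 and 4. Ccr2 was at 213 to 787 TPM in fasted libraries, 49.8 and 57.8 TPM in fed libraries 1 and 2, and 889 and 856 TPM in fed libraries 3 and 4. Fasted library 1 also stood apart: its mitochondrially encoded transcripts summed to 42143 TPM, against 6989 to 9451 TPM in the other fasted libraries, and it had the highest erythroid (407 TPM), lymphocyte (123 TPM) and neutrophil (18811 TPM) sums of the fasted libraries. Without it Idi1 (-1.65, limma adjusted p = 0.0498) and Sqle (-2.27, limma adjusted p = 0.039) were still called. The microglial markers, 3 of 5 listed, summed to 142 to 166 TPM in fasted and 190 to 544 TPM in fed libraries. With fed libraries 3 and 4 as the only fed ones, a choice made after the data were seen, 4 of the 8 enzymes were lower: Sqle (-2.35, limma adjusted p = 0.012), Idi1 (-1.72, limma adjusted p = 0.0063), Hmgcs1 (-0.89, limma adjusted p = 0.048) and Fdps (-0.84, limma adjusted p = 0.049). Over all genes that fit called 481 lower, against 78 with all fed libraries. Centred on library medians, Idi1 (-1.77), Sqle (-2.20), Hmgcs1 (-1.21) and Fdft1 (-1.18) were lower, where 217 genes were called lower over all. The median of all genes as deposited was 0.26. Without fasted library 2, 3 or 4, Idi1 (-1.47 to -1.56) and Sqle (-1.85 to -1.96) lost their calls, and Sqle also without fed library 1 (-2.03, limma adjusted p = 0.054). Of the related genes Msmo1, the sterol methyl oxidase, was called (-1.18, limma adjusted p = 0.048), while Srebf2 (-0.83, limma adjusted p = 0.060), Insig1 (-0.20) and Ggps1 (0.28) did not pass.

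The calls of each enzyme can be set side by side over the comparisons; no difference between steps was tested. Idi1 was called lower in 5 of the 5 comparisons of fasted with fed mice, at log2 fold changes of -0.40 to -4.60, Sqle in 4 of the 4 that list it, Fdps in 4 of 5 and Lss in the 2 of 2 that list it. Of all genes, 26.8% and 16.8% were called lower in hepatocytes at 4 h and 12 h. The shares were 0.159% and 14% in marrow at 4 h and 17 h, and 0.859% in spinal cord. The share of genes called lower in every comparison was not computed. The calls of Idi1 and Sqle in marrow at 4 h were lost under both other scalings, and those of Idi1 at 17 h and of both enzymes in spinal cord were lost without some single libraries. Hmgcs1, Mvd and Fdft1 were called lower in both hepatocyte comparisons and, as deposited, higher in marrow at 17 h, where 75.4% of all genes were called higher. There the Hmgcs1 call was lost with quantile normalization. Under both other scalings Mvd turned negative and did not pass, and Fdft1 was called lower (-0.91 with quantile normalization and -0.71 with centring). The Fdft1 call as deposited was also lost without some single libraries. Mvk was called lower in the 2 hepatocyte comparisons of the 4 that list it, and Pmvk in 2 of 5, in hepatocytes at 12 h and in marrow at 17 h. No libraries are shared between these 5 comparisons, but the hepatocyte pair was fitted together. Differences between cell types in the response were not tested.

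**Figure D5:**
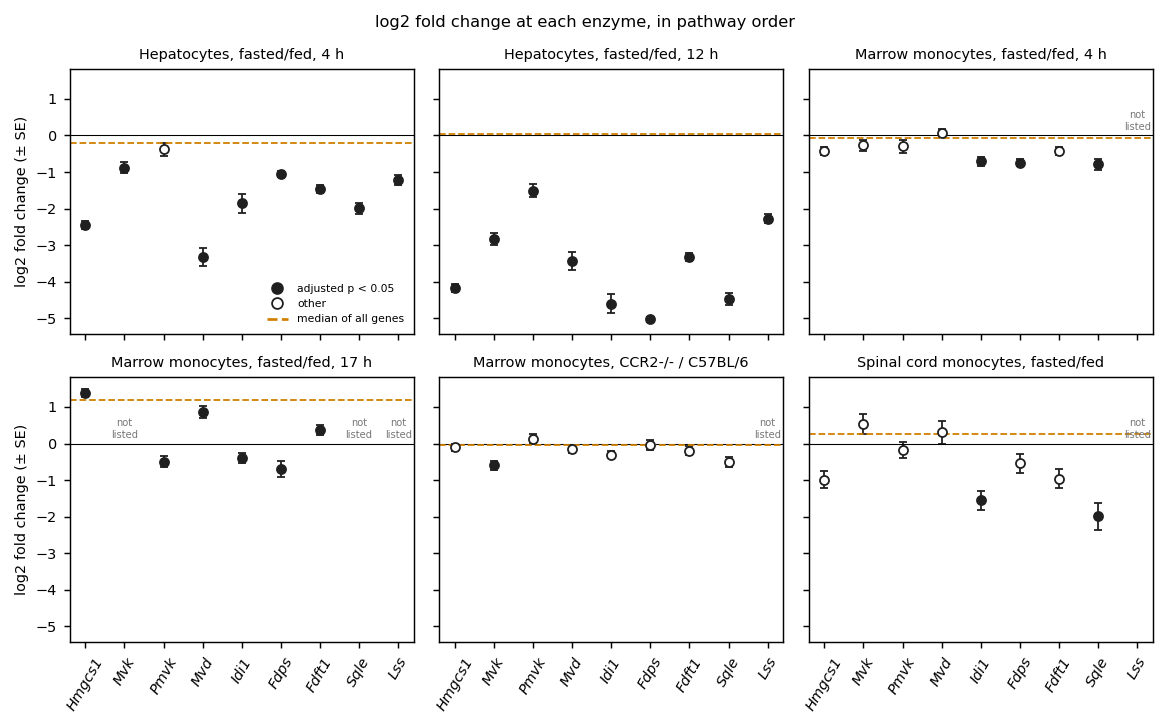
log2 fold change of each enzyme in pathway order, fasted over fed or CCR2-/- over C57BL/6, with error bars of 1 SE; filled points have an adjusted p under 0.05 and the dashed line is the median of all genes. The 9 points at 12 h in hepatocytes run from -1.51 (Pmvk) to -5.03 (Fdps), and those of CCR2-/- monocytes from -0.60 (Mvk) to 0.12 (Pmvk).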

How the data were processed

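RNA from 39 libraries was sequenced by the submitters, with total RNA and a low-input library kit per the labels' protocols. The deposited values are TPM per gene and library, made by the authors; kallisto 0.44.0 and build GRCm38 are named in the submitters' processing notes, while the sources used here do not state the annotation or any gene filter. The unit was inferred from library sums of 982922 to 994023. Read depth is unknown, so no counting error is given.

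TPM were tested as log2(TPM + 1) with limma 3.58.1 in R 4.3.3 (trend and robust settings), keeping genes with a mean of at least 1 TPM, with Benjamini-Hochberg adjustment over all genes and a threshold of 0.05. The 10 hepatocyte libraries were fitted together, each monocyte experiment alone, and 15 marrow libraries together for the interaction. Symbols turned into dates were dropped. Fits were tested on simulated data. Members and lists were chosen with earlier results of these data known. Named related genes were up to 4 per list with the largest called change, besides Srebf2, Insig1 and Ggps1 and the 8 genes most like the members in profile; some genes that this rule names are not reported here. Alternatives were quantile normalization, median centring, a pseudocount of 0.1, no filter or a mean of at least 10 TPM, limma without trend or robust settings, 1 time alone, 15 marrow libraries in 1 fit, a replicate block and leaving out each library; with fed spinal cord libraries 3 and 4 alone added after the data were seen.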

Additional observations from a re-analysis of the deposited data

Results flagged for a closer look

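In 8 of the 9 enzymes the hepatocyte fasting difference was larger at 12 h than at 4 h by the test of the interaction: Fdps (-3.98), Idi1 (-2.74), Sqle (-2.47), Mvk (-1.96), Fdft1 (-1.87), Hmgcs1 (-1.72), Pmvk (-1.13) and Lss (-1.05) on the log2 scale. In this direction 7.43% of all genes had a called interaction. The Pmvk call was lost without fed 12 h library 2. With the replicate number as a block, the Pmvk and Lss calls were lost. In marrow monocytes the fasting difference was higher at 17 h than at 4 h for Hmgcs1 (1.81), Fdft1 (0.81) and Mvd (0.79). Of all genes 75.1% were called higher there, and the median of all genes was 1.27. The marrow times are separate experiments, so time and experiment cannot be told apart.

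Single libraries lay far from the other 3 of their group in 3 of the 38 sets of 4 values looked at, and chance gives such a gap in about 1 in 20 sets. Fdft1 was at 12.6 TPM in 1 fasted 4 h marrow library, below the others at 15.4 to 15.7 TPM. In fasted 17 h marrow Mvd was at 22.6 TPM in library 1, below 24.6 to 24.9 TPM, and Fdps at 121 TPM in the same library, above 81.0 to 86.4 TPM.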

How the results depend on the processing

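Of 1440 fold changes of the enzymes under alternatives, 1331 kept their direction and their side of the threshold, 66 lost a call and 16 gained one in the same direction, and 27 reversed. The cause was not tested. Many of these settings can move only the p-value: limma without trend or robust settings, another gene filter, and leaving out a library outside the comparison. There the fold change could not alter, so the 1331 is no measure of how robust the values are. All 9 calls in hepatocytes at 12 h held under every alternative run. With quantile normalization, the enzymes called numbered 0 higher in fasted hepatocytes at 12 h over 4 h, 1 lower in marrow at 4 h, 0 higher in marrow at 17 h, 1 higher and 4 lower in the marrow interaction, 0 lower in CCR2-/- and 4 lower in spinal cord. With median centring they numbered 0 higher in fasted hepatocytes over time, 1 lower in marrow at 4 h, 1 higher in marrow at 17 h, 1 higher and 3 lower in the marrow interaction, 0 lower in CCR2-/- and 4 lower in spinal cord. Quantile normalization and centring reversed, at 17 h in marrow, Fdft1 (-0.91 and -0.71), Mvd (-0.34 and -0.23) and Srebf2 (-0.39 and -0.14), and in the marrow interaction Fdft1 (-0.51 and -0.34), Idi1 (-0.88 and -0.84) and Mvd (-0.45 and -0.35). They also reversed Fdps in that interaction (-0.16 and -1.11) and in CCR2-/- (0.0013 and 0.038), Idi1 in fasted hepatocytes over time (-0.43 and -0.23) and Ggps1 in marrow at 4 h (0.033 and 0.040). Quantile normalization reversed Ggps1 in the hepatocyte interaction (-0.53), and centring Hmgcs1 in fasted hepatocytes over time (-0.13). Limma that was not robust left 1 enzyme lower in marrow at 4 h, limma without a trend 0 in CCR2-/-, and the filter at 10 TPM left 0 in CCR2-/-, where Mvk is below it, and 1 in spinal cord. Fed spinal cord libraries 3 and 4 alone gave 4, and reversed Mvd (-0.23) and Ggps1 (-0.15).

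The labels do not state whether replicate numbers pair the libraries. Same-numbered libraries deviated together at correlations of -0.34 to 0.32 over the 6 comparisons. These correlations cannot show or exclude pairing, because deviations within groups of so few libraries are tied to each other. With the replicate number as a block, 6 enzymes were lower in the hepatocyte interaction, where Pmvk (-1.20, limma adjusted p = 0.082) and Lss (-1.04, limma adjusted p = 0.070) lost their calls. In fed hepatocytes at 12 h over 4 h, 1 was lower, and Mvd, Mvk, Fdft1, Pmvk and Sqle lost their calls. In fasted ones 0 were higher, and Hmgcs1, Mvd and Lss lost their calls. The block left 1 enzyme lower in marrow at 4 h, 2 in CCR2-/- and 0 in spinal cord. Leaving out 1 library each gave 8 to 9 enzymes lower in hepatocytes at 4 h, 0 to 2 higher in fasted hepatocytes over time, 1 to 3 lower in marrow at 4 h, 0 to 1 in CCR2-/- and 0 to 3 in spinal cord. Among values that did not pass, some turned sign with 1 library left out: Mvd in the hepatocyte interaction (-0.50 to 0.31) and in marrow at 4 h (-0.015 to 0.12), Idi1 in fasted hepatocytes over time (-0.26 to 0.69), Fdps in the marrow interaction (-0.19 to 0.29) and in CCR2-/- (-0.16 to 0.066), and Ggps1 in hepatocytes at 4 h (-0.032 to 0.19) and in marrow at 4 h (-0.052 to 0.036).

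Counts of all genes called lower moved by over 1.5 times as follows, besides the scalings at 17 h and in the marrow interaction given above. In hepatocytes at 4 h, 2403 became 1394 with quantile normalization, 1228 with the block and 1237 with that time alone. The interaction's 666 became 1054 with quantile normalization and 370 with the block. In fed hepatocytes over time 2313 became 748 with the block, and in fasted ones 2062 became 945 with the block and 3153 with centring. In marrow at 4 h, 15 became 8 with centring, 9 without a trend, 6 with the block and 27 with 15 marrow libraries. In CCR2-/-, 344 became 222 with quantile normalization, 31 without a trend and 1142 with the block, and in spinal cord 78 became 290 with quantile normalization, 217 with centring and 481 with fed libraries 3 and 4 alone. With 1 library left out, the genes called lower ranged from 976 to 1959 in hepatocytes at 12 h, 404 to 1011 in the interaction, 3 to 55 in marrow at 4 h, 5 to 990 in CCR2-/- and 14 to 173 in spinal cord. Genes called higher moved as follows. With the block, 928 became 461 in hepatocytes at 4 h, 2084 became 857 in the interaction, 2988 became 1028 in fed and 4187 became 2181 in fasted hepatocytes over time, 59 became 281 in CCR2-/- and 143 became 67 in spinal cord. With the filter at 10 TPM, 2099 became 1343 in hepatocytes at 12 h, and the fed, fasted and spinal cord counts became 1968, 2623 and 86. With 4 h alone 928 became 507, with 15 marrow libraries 25 became 45, and without a trend 59 became 17. In spinal cord 143 became 493 with quantile normalization, 470 with centring and 293 with fed libraries 3 and 4 alone. With 1 library left out, the ranges were 1199 to 2720 in the interaction, 9 to 90 in marrow at 4 h, 6 to 116 in CCR2-/- and 8 to 572 in spinal cord. The number of libraries limits precision, and read depth is unknown.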
